A study of Mus musculus with 6 samples.

Results

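The bone morphogenetic protein (BMP) ligands Bmp2, Bmp3, Bmp4, Bmp5, Bmp6, Bmp7, Bmp8a and Bmp8b were followed in brown adipose tissue (BAT) of mice fed a low-fat diet (LFD) or a high-fat diet (HFD). The 8 genes were taken by symbol from the 47729 genes of each deposited table, and all 8 were found. All mice were male, wild type and of the C57BL/6J strain. They were 6 weeks old at the start and 10 weeks old at the end of 4 weeks of feeding. The HFD-fed mice received a diet with 45% of its energy as fat and the LFD-fed mice a standard laboratory rodent diet, so the diets differed in more than fat. The interscapular depot of the right side was sequenced in 3 single-housed mice per diet, which the study chose for having the greatest, the medium and the least fat mass of a larger group. The comparison asks which ligands differ in mRNA level between lean mice and mice made obese by the diet.

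BMPs are secreted dimers that are cut from a pro-protein by furin-like convertases and bind a complex of type I and type II receptor kinases on the cell surface. The receptors phosphorylate Smad1, Smad5 and Smad9, which enter the nucleus with Smad4 and switch on targets such as the Id genes, and extracellular proteins such as noggin and chordin hold the ligands away from the receptors. In adipose tissue, Bmp7 is known for driving precursors towards the brown adipocyte fate, Bmp2 and Bmp4 for committing mesenchymal cells to the adipocyte lineage, and Bmp8b for being secreted by brown adipocytes and raising their response to noradrenaline. Bmp3 is the unusual member, known mainly as an antagonist of the others in bone.

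Bmp8a and Bmp8b are neighbouring paralogs with similar coding sequence, and the results for them turn on whether reads of 75 bases can be told apart. In GRCm38 with the GENCODE M21 annotation, Bmp8b (ENSMUSG00000002384) lies at chr4:123105165-123132099 on the plus strand and Bmp8a (ENSMUSG00000032726) at chr4:123312645-123343252 on the minus strand. Their coding sequences of 1236 bases in Bmp8a and 1197 bases in Bmp8b were identical at 88.3% of the aligned positions without a gap. The most different stretch of 90 bases within 1 exon lies in the last coding exon, exon 7, and is shown because a read from it names its gene. It is at chr4:123313306-123313395 on the minus strand in Bmp8a and at chr4:123124409-123124498 on the plus strand in Bmp8b, and the capitals mark the 22 positions at which the genes differ.
Bmp8a exon 7: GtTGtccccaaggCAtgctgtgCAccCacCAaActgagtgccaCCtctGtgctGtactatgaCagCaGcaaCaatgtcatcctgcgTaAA
Bmp8b exon 7: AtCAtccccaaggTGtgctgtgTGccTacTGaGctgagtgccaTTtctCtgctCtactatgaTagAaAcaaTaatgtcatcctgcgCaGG
The longest identical stretch within 1 exon is shown because a read from it fits both genes equally well. It covers 124 bases of exon 2, at chr4:123325165-123325288 on the minus strand in Bmp8a and at chr4:123114568-123114691 on the plus strand in Bmp8b.
Bmp8a and Bmp8b exon 2: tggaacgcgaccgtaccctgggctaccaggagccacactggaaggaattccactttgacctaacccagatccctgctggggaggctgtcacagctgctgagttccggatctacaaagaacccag
Of all windows of 75 bases in the transcripts of the files, 159 were shared between the genes, which is 6.62% of the windows of Bmp8a and 4.18% of those of Bmp8b. The other windows of Bmp8a, and of Bmp8b apart from those it shares with Gm17244 and Ppie, were found in no other gene.

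The start regions of the paralogs were compared as well, since the genes differed in level. The promoter sequences from RefSeq (GRCm38.p6) are shown 5′ to 3′, with matches to the GC box GGGCGG and to CCAAT, on either strand, in capitals.
Bmp8b promoter, chr4:123104911-123105210, plus strand: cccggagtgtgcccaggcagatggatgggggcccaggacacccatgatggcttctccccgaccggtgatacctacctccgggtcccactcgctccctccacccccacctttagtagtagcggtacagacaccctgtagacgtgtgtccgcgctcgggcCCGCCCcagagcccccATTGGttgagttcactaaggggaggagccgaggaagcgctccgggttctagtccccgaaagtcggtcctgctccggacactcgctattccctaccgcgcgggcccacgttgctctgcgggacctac
Bmp8a promoter, chr4:123343203-123343502, minus strand: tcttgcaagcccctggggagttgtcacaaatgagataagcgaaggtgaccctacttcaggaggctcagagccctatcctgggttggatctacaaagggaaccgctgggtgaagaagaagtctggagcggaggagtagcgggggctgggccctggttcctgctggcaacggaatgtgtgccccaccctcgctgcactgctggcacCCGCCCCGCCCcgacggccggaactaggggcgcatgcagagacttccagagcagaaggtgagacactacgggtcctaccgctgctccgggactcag
The Bmp8b promoter held a reverse GC box at position -92 from the start and a reverse CCAAT at position -76. The Bmp8a promoter held 2 reverse GC boxes that overlap each other, and no match to the other motif. Of the 32851 promoters in RefSeq, 35.7% held GGGCGG and 37.4% held CCAAT, so both motifs are common. The promoters of Bmp4 and Bmp6 held 1 GC box each and that of Bmp5 held none of either motif. The TATA box, searched as TATAAA, was found in 13.6% of all promoters but in none of these 5. The Smad1 element GGCGCC was present in 11.9% of the 32851 promoters and had no match here. A cyclic AMP element, searched as the short form TGACG that 20.8% of all promoters hold, had no match either, and so neither did its long form TGACGTCA (1.79% of all promoters). A direct repeat of AGGTCA spaced by 1 base, which 0.0396% of all promoters hold, was not found. Bmp2, Bmp3 and Bmp7 had no entry.

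Between 17156991 and 21603487 rounded counts were obtained per mouse, and a count of 3, taken as the floor, corresponded to 0.139 to 0.175 CPM, the count scaled to a fixed library total. The share of counts from mitochondrially encoded genes ran from 8.50% to 22.7% in the HFD-fed mice and from 3.87% to 13.8% in the LFD-fed mice. Levels are given in TPM, which divides the count by transcript length and scales it to the same total in every sample. The tissue label was checked with Ucp1, the uncoupling protein that defines brown adipocytes, which had 2728, 4021 and 796 TPM in HFD-fed mice 1, 2 and 3 and 443, 11.0 and 76.0 TPM in LFD-fed mice 1, 2 and 3. The defining marker was thus low in LFD-fed mice 2 and 3. For all 16 skeletal muscle markers the lowest LFD value exceeded the highest HFD value, with a summed level of 2101 to 14832 TPM against 19.1 to 242 TPM. In bulk tissue, fewer cells of a type and less RNA per cell cannot be told apart.

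BMP ligand mRNAs were of low to middling abundance in BAT. Over the 6 mice, Bmp3 had the highest mean level at 5.98 TPM ± 5.35 (SD, n = 6), followed by Bmp6 at 4.60 ± 1.89, Bmp2 at 1.68 ± 1.02, Bmp4 at 1.58 ± 1.12, Bmp8b at 1.32 ± 1.72, Bmp5 at 1.16 ± 0.817, Bmp7 at 0.982 ± 0.837 and Bmp8a at 0.240 ± 0.123. Each mean differed from that of the next gene by less than the SD of at least 1 of the pair, except between Bmp6 and Bmp2, whose lowest and highest mice, at 2.64 and 3.2 TPM, still overlapped. Bmp3 had a higher mean than 65.2% and Bmp8a a higher mean than 29.2% of the 29856 genes with any count. The order was not the same in the 2 diets. In the LFD-fed mice Bmp3 led with 9.90 TPM ± 4.91 (SD, n = 3) and Bmp8b was last with 0.280 ± 0.161. Bmp8a, with 0.327 ± 0.029 TPM, differed from Bmp8b by less than the SD of Bmp8b. In the HFD-fed mice Bmp6 led with 4.0 ± 1.97 TPM (SD, n = 3), Bmp8b came next with 2.36 ± 2.03 and then Bmp3 with 2.06 ± 1.21. Bmp8b differed from Bmp6 and from Bmp3 by less than the SDs. The gap from Bmp6 to Bmp3 was larger than the SD of Bmp3 but smaller than that of Bmp6. In HFD-fed mouse 1, Bmp3 was at 2.66 TPM and Bmp6 at 2.64 TPM.

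**Figure D1:**
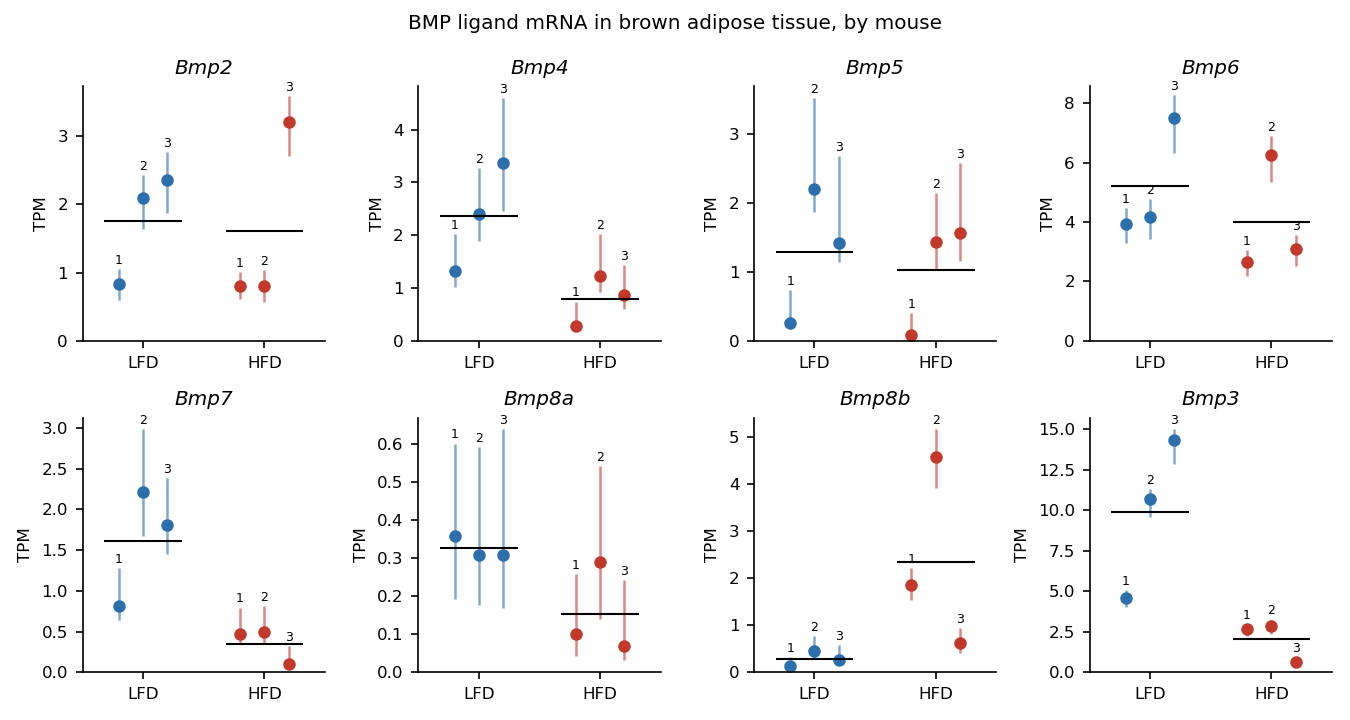
Level of each BMP ligand in each mouse in TPM, with LFD in blue and HFD in red. Points are mice, marked with their replicate number, vertical lines are the credibility intervals of RSEM and horizontal lines are the means of 3 mice. The red points of Bmp3, Bmp4, Bmp7 and the barely detected Bmp8a all lie lower than the blue ones, those of Bmp8b all lie higher, and Bmp2, Bmp5 and Bmp6 overlap.

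Between the diets, Bmp8b was the 1 ligand with higher values in every HFD-fed mouse, and Bmp3, Bmp4 and Bmp7 were lower in every HFD-fed mouse, as was the barely detected Bmp8a in TPM. No ligand passed the edgeR test: of the 7 tested genes, edgeR's quasi-likelihood test called 0 when a Benjamini-Hochberg adjusted p under 0.01 was required together with a log2 fold change beyond 1.5 in either direction, and the same rule called 0% of all 17668 genes tested. DESeq2, which tested all 8 ligands, called 1, Bmp8b, and 1.38% of the 29805 genes to which it gave an unadjusted p. At an unadjusted p under 0.05 the quasi-likelihood test had 4 of the 7 ligands, 3 lower and 1 higher in HFD, beside 10.5% of all genes (6.62% lower and 3.86% higher). The values of these same 4 ligands, as log2 CPM, did not overlap between the diets, which held for 15.9% of all genes (9.23% fully lower and 6.72% fully higher in HFD). The median log2 fold change, HFD over LFD, was -0.34 over the 7 ligands and -0.048 over all genes tested. Leaving out LFD-fed mouse 2 or LFD-fed mouse 3 lowered the number of ligands at an unadjusted p under 0.05 from 4 to 2. These were 2 of 7 ligands beside 1301 of 18190 genes without LFD-fed mouse 2, and 2 of 8 beside 3146 of 18236 without LFD-fed mouse 3. Leaving out any other 1 mouse lowered the number of ligands to 3, as did RLE, another method for the size factors. It was 3 of 8 without HFD-fed mouse 1, 2 or 3, beside 1778 of 18473, 1131 of 18293 and 1106 of 18240 genes. Without LFD-fed mouse 1 it was 3 of 7, beside 2627 of 18392 genes. In the fit with the replicate block the count of ligands was again 4, beside 17.5% of all genes.

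**Figure D2:**
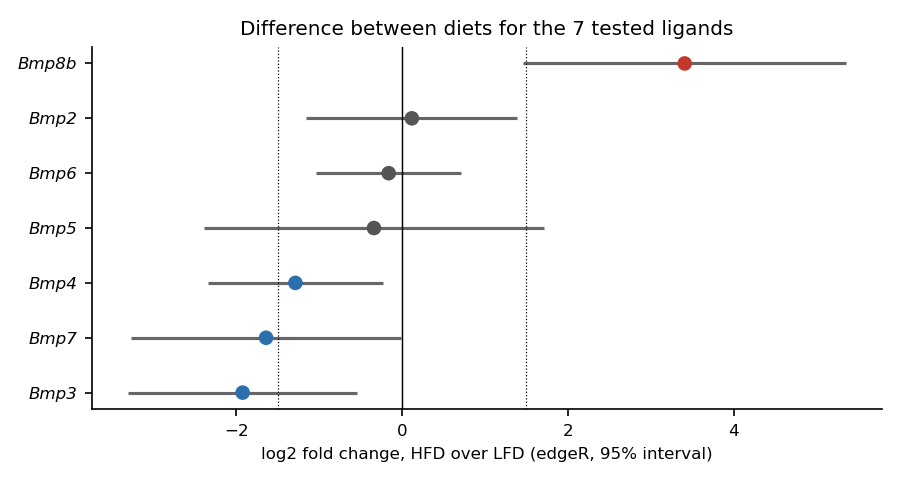
Log2 fold change of the 7 tested ligands, HFD over LFD, from edgeR with 95% intervals. Red marks the gene whose HFD values are all higher, blue those whose HFD values are all lower, grey those that overlap, and dotted lines mark the fold threshold of 1.5 on the log2 scale. Bmp8b is at 3.41, Bmp4, Bmp7 and Bmp3 are between -1.92 and -1.29, and the intervals of Bmp2, Bmp5 and Bmp6 span 0.

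Bmp8b, the ligand that brown adipocytes secrete, had 1.86, 4.59 and 0.62 TPM in HFD-fed mice 1, 2 and 3, from 117, 209 and 27 counts. In LFD-fed mice 1, 2 and 3 it had 0.13, 0.45 and 0.26 TPM, from 7, 16 and 9 counts. HFD-fed mice 1 and 2 stood well above every LFD-fed mouse, while HFD-fed mouse 3 lay close to the highest LFD-fed mouse. RSEM gave HFD-fed mouse 3 a credibility interval of 0.411 to 0.940 TPM and LFD-fed mouse 2 one of 0.277 to 0.775 TPM, and these overlap. The log2 fold change was 3.41 ± 0.82 (SE) with a 95% interval of 1.46 to 5.36, which is 10.6-fold, and edgeR's quasi-likelihood test gave an adjusted p of 0.215 (unadjusted 0.00452). DESeq2 put the log2 fold change at 3.44 with an adjusted p of 0.00102, and over all alternatives the adjusted p ran from 0.00102 to 0.582. On the scale of log2(TPM + 1), which shrinks differences at low levels, the value was 1.22. The summed level of the 12 brown adipocyte markers was 1917, 6045 and 7435 TPM in the HFD-fed mice and 332, 690 and 2194 TPM in the LFD-fed mice, in ascending order and with overlap. The diets did not overlap for 2 of the 12, both higher in HFD. Of all genes, 15.9% did not overlap in either direction and 6.72% were fully higher in HFD. Of the 12 markers, 10 had a positive and 2 a negative log2 fold change. Bmp8b and Ucp1 had the same order of mice in HFD and the reverse order in LFD. The part of the brown adipocyte markers in the Bmp8b difference was not tested.

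Bmp8a, which is best known from the testis, was near the limit of detection. It had 0.10, 0.29 and 0.07 TPM in HFD-fed mice 1, 2 and 3, from 4, 9 and 3 counts, and 0.36, 0.31 and 0.31 TPM in LFD-fed mice 1, 2 and 3, from 12, 10 and 8 counts. In TPM all HFD values were lower than any LFD value, but in log2 CPM the diets overlapped, with HFD-fed mouse 2 at -0.91 and LFD-fed mouse 3 at -1.03. HFD-fed mouse 2 and LFD-fed mouse 2 had credibility intervals of 0.141 to 0.542 and 0.176 to 0.594 TPM, and HFD-fed mouse 3 was at the floor. The gene did not pass the filter on low counts and was not tested in the fit, so no fold change is given.

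The share of each paralog in the Bmp8 mRNA was separated by diet. Bmp8b supplied 94.9%, 94.1% and 89.9% of the Bmp8a and Bmp8b TPM in HFD-fed mice 1, 2 and 3 and 26.5%, 59.2% and 45.6% in LFD-fed mice 1, 2 and 3. Bmp8b was nearly all of the pool in each HFD-fed mouse and shared it more evenly with Bmp8a in the LFD-fed mice. The means were 92.9% ± 2.70 and 43.8% ± 16.4 (SD, n = 3 each), a difference of 49.2 percentage points, with an exact two-sided permutation p of 0.1, the smallest that 3 mice against 3 allow. The counts behind the LFD values were few. In LFD-fed mouse 1, 7 of 19 counts were of Bmp8b, a 95% Wilson interval of 19.2% to 59.0%, and in LFD-fed mouse 2, 16 of 26, an interval of 42.5% to 77.6%. In HFD-fed mouse 3, 27 of 30 counts were of Bmp8b, with an interval of 74.4% to 96.5%. These intervals cover counting error only. The identical exon 2 sequence above is only a part of where RSEM had to divide reads between the genes. Across exon boundaries the longest identical run of the coding sequences was 182 bases. The posterior SD that RSEM gave for Bmp8b was 0.63 to 1.84 counts. Windows of Bmp8b were also shared with its antisense gene Gm17244 (199 of 3806 windows) and with Ppie (63), and Bmp8a shared 98 of its windows with Gm17244. Whether the counting used strand is not given in the sources used here. Gm17244 itself had 1 to 12 counts per mouse.

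Bmp3, the antagonist-like member, was the most abundant ligand of the LFD-fed mice. Bmp3 (ENSMUSG00000029335, chr5:98854415-98884396, plus strand) had 2.66, 2.86 and 0.67 TPM in HFD-fed mice 1, 2 and 3 and 4.62, 10.73 and 14.34 TPM in LFD-fed mice 1, 2 and 3. The diets did not overlap, and LFD-fed mouse 1 was the lowest of its diet. The nearest mice of the 2 diets had credibility intervals of 2.37 to 3.26 TPM (HFD-fed mouse 2) and 4.06 to 5.06 TPM (LFD-fed mouse 1), which do not overlap either. The log2 fold change was -1.92 ± 0.58 (SE), with a 95% interval of -3.31 to -0.54 and an adjusted p of 0.323 by edgeR's quasi-likelihood test (unadjusted 0.0136). No window of 75 bases in Bmp3 was found without a difference in another gene. Its counts were 74 to 301 in HFD and 479 to 1025 in LFD, and the posterior SD that RSEM gave for the division of reads was 0.45 to 1.42 counts. The fibroblast and progenitor markers, at 2871 to 4924 TPM in HFD and 1842 to 26802 TPM in LFD, had 2 of 8 genes fully lower in HFD. All 8 had a negative log2 fold change. The white adipocyte markers, at 44.3 to 317 TPM in HFD and 225 to 1909 TPM in LFD, had 1 of 7 tested genes fully lower in HFD. All 7 had a negative log2 fold change. Of all genes, 9.23% were fully lower in HFD. The part of fibroblasts and progenitors, white adipocytes and skeletal muscle in the Bmp3 difference was not tested.

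Bmp4 and Bmp7, the ligands tied to adipocyte commitment and to the brown fate, had the same order of diets at lower levels. Bmp4 (ENSMUSG00000021835, chr14:46383520-46390669, minus strand) had 0.29, 1.22 and 0.86 TPM in HFD-fed mice 1, 2 and 3 and 1.33, 2.40 and 3.37 TPM in LFD-fed mice 1, 2 and 3. The highest HFD-fed mouse and the lowest LFD-fed mouse nearly met, with credibility intervals of 0.921 to 2.03 and 1.03 to 2.03 TPM. The log2 fold change of Bmp4 was -1.29 ± 0.44 (SE), with a 95% interval of -2.34 to -0.23 and an adjusted p of 0.385 by edgeR's quasi-likelihood test (unadjusted 0.0239). It rested on 11 to 35 counts in HFD and 39 to 62 in LFD.

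Bmp7 (ENSMUSG00000008999, chr2:172868012-172940321, minus strand) had 0.47, 0.49 and 0.10 TPM in HFD-fed mice 1, 2 and 3 and 0.81, 2.21 and 1.81 TPM in LFD-fed mice 1, 2 and 3. HFD-fed mouse 3 was the lowest of all and LFD-fed mouse 1 the lowest of its diet. The intervals of HFD-fed mouse 2 (0.358 to 0.810 TPM) and LFD-fed mouse 1 (0.648 to 1.28 TPM) overlapped. The log2 fold change of Bmp7 was -1.64 ± 0.68 (SE), with a 95% interval of -3.27 to -0.0091 and an adjusted p of 0.476 by edgeR's quasi-likelihood test (unadjusted 0.0491). On the log2(TPM + 1) scale it was -0.92, where the median of all genes was -0.18. HFD-fed mouse 3 had 6 counts of Bmp7, against 52 to 91 in the LFD-fed mice.

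Bmp2, Bmp5 and Bmp6 overlapped between the diets. Bmp2 (ENSMUSG00000027358, chr2:133552159-133562885, plus strand), which acts in adipocyte commitment, had 0.81, 0.81 and 3.2 TPM in HFD-fed mice 1, 2 and 3 and 0.83, 2.09 and 2.36 TPM in LFD-fed mice 1, 2 and 3. HFD-fed mouse 3 was the highest of the 6, and its removal turned the log2 fold change from 0.12 to -0.59. The 95% interval of the difference was -1.15 to 1.39 on the log2 scale, so changes of over 2-fold in either direction remain inside it.

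Bmp6 (ENSMUSG00000039004, chr13:38345107-38500302, plus strand), known as the ligand by which endothelial cells of the liver signal iron load, had 2.64, 6.26 and 3.09 TPM in HFD-fed mice 1, 2 and 3 and 3.93, 4.18 and 7.49 TPM in LFD-fed mice 1, 2 and 3. The diets were interleaved. Its log2 fold change was -0.16 ± 0.37 (SE), with a 95% interval of -1.03 to 0.71, the narrowest of the 7 ligands. Of its windows 4.26% were shared with Txndc5, a gene on the opposite strand that had 2302 to 8910 counts per mouse. The windows were taken from the transcript of GENCODE M21, which has 3593 bases where the deposited tables have 2410.

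Bmp5 (ENSMUSG00000032179, chr9:75775364-75900310, plus strand), a ligand best known from skeletal development, varied more within the diets than between them. It had 0.09, 1.43 and 1.56 TPM in HFD-fed mice 1, 2 and 3 and 0.26, 2.20 and 1.42 TPM in LFD-fed mice 1, 2 and 3. Mouse 1 of each diet was the lowest. The log2 fold change was -0.34 ± 0.86 (SE), with a 95% interval of -2.39 to 1.71, and it turned to 0.16 without HFD-fed mouse 1 and to 0.27 without LFD-fed mouse 2. Of its windows 45.7% were shared with the antisense gene Gm26903, which had 3 to 16 counts per mouse. RSEM gave a posterior SD for the division of reads of 1.49 to 2.80 counts, beside 7 to 115 counts of Bmp5. Whether the counting used strand is not given, so some uncertainty in the assignment of Bmp5 reads remains.

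The sum and the make-up of the ligand mRNA were then examined. Summed TPM was 8.92, 17.95 and 10.17 in HFD-fed mice 1, 2 and 3 and 12.27, 24.57 and 31.36 in LFD-fed mice 1, 2 and 3. HFD-fed mouse 2 lay above LFD-fed mouse 1, so the sums overlapped. Within the same-numbered pairs the difference, HFD minus LFD, was -3.35, -6.62 and -21.2 TPM, lower in HFD in 3 of 3 pairs. The means were 12.3 ± 4.89 and 22.7 ± 9.68 TPM (SD, n = 3 each), with an exact two-sided permutation p of 0.2 that does not use the pairs. Bmp3 supplied 29.8%, 15.9% and 6.59% of the sum in HFD-fed mice 1, 2 and 3 and 37.7%, 43.7% and 45.7% in LFD-fed mice 1, 2 and 3. Bmp8b supplied 20.9%, 25.6% and 6.10% in the same HFD-fed mice and 1.06%, 1.83% and 0.829% in the LFD-fed mice. Both shares were separated by diet, in opposite directions. Bmp6 held 17.0% to 34.9% in all 6 mice, and in HFD-fed mouse 3 Bmp2 was the largest part with 31.5%, ahead of Bmp6 with 30.4%. Shares of a sum depend on each other, so a lower Bmp3 raises the share of every other ligand.

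**Figure D3:**
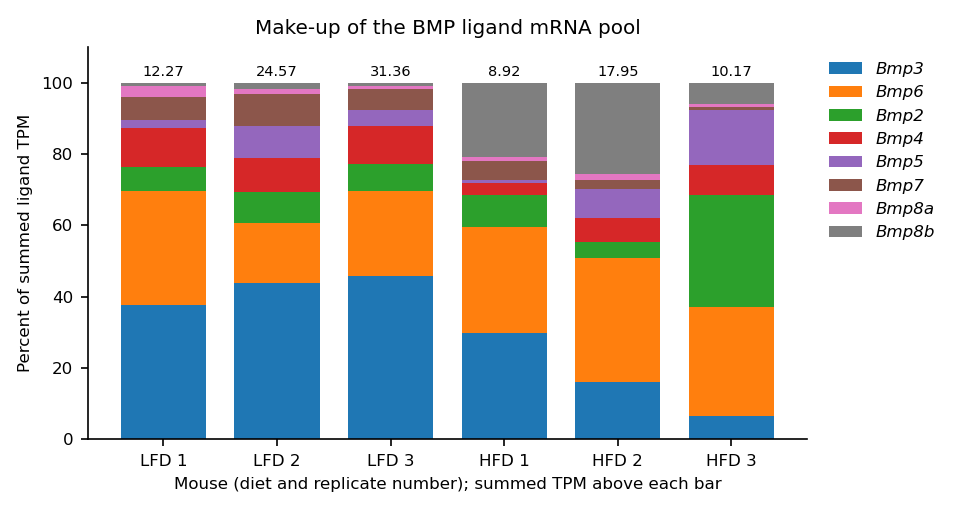
Make-up of the summed TPM of the 8 ligands in each mouse, in percent, with the summed TPM above each bar. Bmp3 makes up 37.7% to 45.7% of the sum in the LFD-fed mice and 6.59% to 29.8% in the HFD-fed mice, and Bmp8b at most 1.83% and 25.6%.

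Transcript use was read from the abundance-weighted length that RSEM reports for the genes with 2 transcripts in the files. The shorter transcript of Bmp8b supplied 1.43% and 24.6% of its TPM in HFD-fed mice 2 and 3 and 13.5% in LFD-fed mouse 2, and none in the other mice. For Bmp7 it supplied 23.7% in LFD-fed mouse 2 and none in the others, and for Bmp5 15.5% and 16.7% in HFD-fed mice 2 and 3. By this estimate the longer transcript accounted for most of the mRNA of these 3 genes in every mouse. For Bmp8a the estimate ran from 0% to 100% and, with 3 to 12 counts, could not be read.

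Within the family, the log2 CPM values of Bmp3 and Bmp7 followed each other most closely, with a Pearson r of 0.986 over the 6 mice, which share diets and libraries. Among 12859 genes with a mean of at least 1 TPM, the genes most like Bmp3 were Adgrg2 (r 0.999), Fgfr1 (0.999) and Edem3 (0.991), and the most like Bmp4 were Tfap4 (0.991), Sptbn5 (0.987) and Hectd2 (0.986). Bmp7 was followed most closely by Chrdl1 (0.994), Dact2 (0.991) and Ces2g (0.989), and Bmp8b by Rarb (0.998), Cntfr (0.995) and Dlg1 (0.976). For the overlapping ligands these were Hsf1, Slc29a3 and Ms4a4a for Bmp2 (0.958 to 0.973), Wdr17, Tmc5 and Fbxl12os for Bmp5 (0.980 to 0.983) and Ephx1, Clec11a and Rcor2 for Bmp6 (0.932 to 0.952). With 6 mice and so many genes searched, coefficients of this size are a description of these libraries.

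The other genes of the pathway were described by role, from 63 listed genes of which 49 were tested. The quasi-likelihood test called 0 of these 49, with a lowest adjusted p of 0.170 by edgeR, beside 0% of all genes. DESeq2 called 3 of the 63 genes, beside 1.38% of the 29805 genes to which it gave an unadjusted p. All 63 had an unadjusted p, but some of them had no adjusted p in DESeq2 and could not be called. At an unadjusted p under 0.05 there were 14 lower and 2 higher in HFD, 32.7% of the 49 beside 10.5% of all genes, and the median log2 fold change was -0.42. The 16 genes at that level became 9 of 50 without HFD-fed mouse 2, and 10 of 50 without HFD-fed mouse 3 or LFD-fed mouse 2. The count was 13 of 49 without HFD-fed mouse 1, 21 of 50 without LFD-fed mouse 1 and again 16 without LFD-fed mouse 3. Over all genes, 1851 of 17668 were at that level with every mouse. This became 1778 of 18473, 1131 of 18293 and 1106 of 18240 without HFD-fed mice 1, 2 and 3. Without LFD-fed mice 1, 2 and 3 it became 2627 of 18392, 1301 of 18190 and 3146 of 18236. The part of the muscle markers in the values of the pathway genes was not tested.

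At an unadjusted p under 0.05, 6.62% of all genes were lower in HFD. Of the type I receptor kinases, 3 of 4 were lower in HFD at that level, namely Bmpr1a (log2 fold change -0.82), Bmpr1b (-1.69) and Acvr1 (-0.79). Acvrl1, the receptor of endothelial cells, was at 0.27 with overlapping diets. Of the type II receptors Bmpr2 was at -0.36, Acvr2a at -0.16 and Acvr2b, the 1 at an unadjusted p under 0.05, at -1.17. Co-receptors had 4 of 5 lower, namely Rgma (-1.76), Rgmb (-0.58), Tgfbr3 (-1.06) and Hfe2, the hemojuvelin gene of muscle and liver, at -6.60. Hfe2 had 0.09, 0.35 and 0.06 TPM in HFD-fed mice 1, 2 and 3 and 12.66, 36.63 and 6.17 TPM in LFD-fed mice 1, 2 and 3, without overlap, and its lowest HFD value rested on 2 counts. Endoglin, Eng, was at 0.30 with overlap. The count of type I receptors at an unadjusted p under 0.05 was 1 in place of 3 without HFD-fed mouse 2 or LFD-fed mouse 2. It was 2 without HFD-fed mouse 1, HFD-fed mouse 3 or LFD-fed mouse 1. That of type II receptors was 0 in place of 1 without any 1 HFD-fed mouse or without LFD-fed mouse 2. For the co-receptors the count was 3 in place of 4 without any 1 HFD-fed mouse or without LFD-fed mouse 2.

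The list of extracellular inhibitors and binding proteins had 5 of 11 tested genes lower and 0 higher at an unadjusted p under 0.05. Over all genes the shares were 6.62% lower and 3.86% higher in HFD. The count from this list was 2 of 12 without HFD-fed mouse 2 and 3 of 12 without HFD-fed mouse 3 or LFD-fed mouse 2. It was 4 of 11 without HFD-fed mouse 1 and 7 of 12 without LFD-fed mouse 1, all lower in HFD. Without LFD-fed mouse 3 it was 4 of 11, with 3 lower and 1 higher. Chordin, Chrd, was at -2.22, Chrdl1 at -1.86, Nbl1 at -1.29, Twsg1 at -0.75 and Bmper at -0.61 on the log2 scale, and Fstl1, the most abundant of the list, was at -1.02 with overlapping diets. Of the related ligands, Gdf10 was at -1.67, Gdf15 at 2.91 and Gdf3 at 1.52 (unadjusted p 0.0535). The intracellular steps showed smaller differences, with 0 of 8 Smads and Smad ligases at an unadjusted p under 0.05 and Smad4, Smurf1 and Smurf2 at -0.19, -0.51 and -0.45. The convertases and chordin proteases also had 0 of 6, with Furin at -0.075, Pcsk6 at -1.04 and Bmp1, a protease and not a ligand, at -0.97. Of the target genes 1 of 8 was higher, Id2 at 1.09, beside 3.86% of all genes, and Id1 and Id3 were at 0.12 and 0.038. Leaving out 1 mouse moved these counts to between 1 and 3 of the related ligands, 0 and 1 of the Smads and ligases, 0 and 2 of the convertases and proteases and 1 and 2 of the targets.

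**Figure D4:**
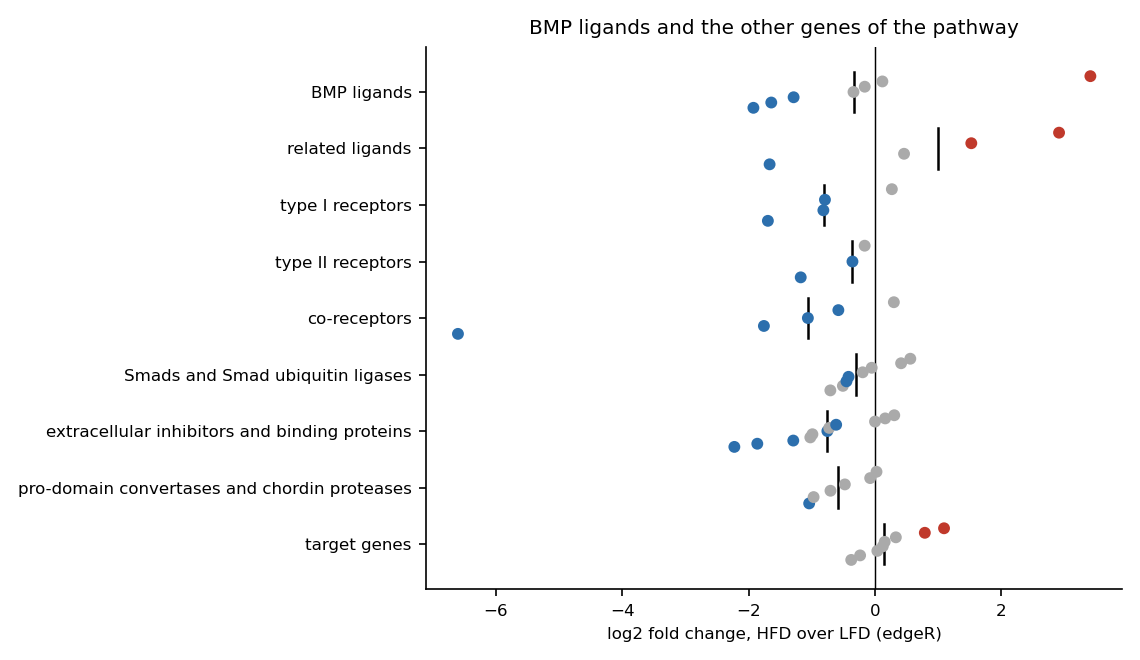
Log2 fold change, HFD over LFD, of each tested gene of the BMP pathway by role. Blue and red points are genes whose HFD values are all lower or all higher than the LFD values, grey points overlap, and black ticks are medians. The ligands reach from -1.92 for Bmp3 to 3.41 for Bmp8b, and the lowest point is Hfe2 at -6.60.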

How the data were processed

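RNA of BAT from 3 HFD-fed and 3 LFD-fed mice was sequenced after ribosomal RNA removal, and groups and replicate numbers were taken from the labels. Per the submitters' processing notes, reads were trimmed with Trimmomatic 0.36, quantified with RSEM 1.3.0 on GRCm38.p4, and tested with DESeq2 1.10.1. The authors deposited expected counts, which divide reads that match several genes, and TPM values, which are scaled for transcript length and sample total. The authors also deposited RSEM's credibility bounds of TPM, a signal estimate from the posterior of the read assignment, and their level is not given in the sources used here.

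Expected counts were rounded and tested in R 4.3.3 with edgeR 4.0.16 (quasi-likelihood test, TMM, filterByExpr with a minimum count of 10, no robust fitting, Benjamini-Hochberg adjustment). Calls required an adjusted p under 0.01 and a log2 fold change beyond 1.5 in either direction, as in the study. Log2 CPM used a prior count of 2. The biological coefficient of variation was 0.448. No same-diet pair was a repeated library (chi-square per degree of freedom 71.7 to 558). Alternatives were DESeq2 1.42.0, limma 3.58.1 on log2(TPM + 1), other size factors and filters, leaving out each mouse, and the replicate number as a block. Same-numbered mice of the 2 diets deviated together (r of 0.498, 0.229 and 0.522, against -0.528 to 0.0532 for other pairs). The main tests did not use this pairing, which entered only the replicate block and the paired differences of summed TPM. The labels do not say what a number marks.

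The ligands, pathway lists and marker lists were chosen with earlier results of these data known. Text names all ligands, the 3 most abundant genes of each pathway list and those at an unadjusted p under 0.05 without overlap, plus the 3 genes most correlated with each tested ligand.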

Additional observations from a re-analysis of the deposited data

How the results depend on the processing

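The number of ligands called was 0 in every alternative except DESeq2, which called 1 (Bmp8b, log2 fold change 3.44, adjusted p 0.00102), and the number of pathway genes called was 0 in every alternative except DESeq2, which called 3 (Chrd, Hfe2 and Rgma). DESeq2 called 411 of all genes and edgeR 0, with 1851 at an unadjusted p under 0.05, and the cause of the gap between the tools was not tested. Under the replicate block, edgeR called 0 ligands, Bmp8b was at 3.07 (adjusted p 0.104), Bmp3 at -2.14 (0.206), and 17.5% of all genes had an unadjusted p under 0.05. Block and pairing changed no call. Bmp2 turned to -0.066 with the replicate block, -0.16 with limma on log2(TPM + 1), and ranged from -0.59 to 0.46 when 1 mouse was left out, with -0.59 without HFD-fed mouse 3 and -0.046 without LFD-fed mouse 1. Bmp5 ranged from -0.74 to 0.27 (0.16 without HFD-fed mouse 1, 0.27 without LFD-fed mouse 2) and Bmp6 from -0.48 to 0.066 (0.066 without HFD-fed mouse 3). Leaving out 1 mouse moved Bmp8b between 2.81 and 3.90, Bmp3 between -2.44 and -1.48, Bmp4 between -1.67 and -1.0 and Bmp7 between -2.26 and -1.15, all in the direction reported. Requiring 10 counts in every mouse left 4 ligands to test. The few counts of Bmp8a, Bmp8b in LFD and Bmp7 in HFD limit what can be seen of them, and same-diet spread is large.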
